A study of Mus musculus with 6 samples.

Results

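The control hepatocytes of an actinomycin D (ActD) time course were chosen by the titles of their arrays, and they make up 3 of the 6 arrays of the series. Hepatocytes were prepared from E16.5 mouse embryos and differentiated in culture for several days before ActD was added. Total RNA was taken at 0 h and after 6 h and 12 h of ActD. Each combination of genotype and time is a single array. The labels give the control genotype as wild type, whereas the methods of the study count as controls embryos with 1 or both floxed Cnot3 alleles and no Cre, and embryos with albumin promoter-driven Cre and at least 1 intact allele. Which of these gave the control RNA, the sex of the embryos and whether embryos were pooled are not stated. The other 3 arrays are of Cnot3KO cells, in which that Cre deletes Cnot3, over the same hours. Both sets of cells had been cultured with oncostatin M, dexamethasone and insulin, and floating cells had been washed off.

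ActD binds DNA and stops RNA polymerases, so that an mRNA that is no longer made decays at a rate set by its own stability. Short-lived mRNAs typically encode transcription factors and regulators of signalling, and long-lived mRNAs typically encode secreted proteins, metabolic enzymes and ribosomal proteins. The Ccr4-Not complex removes poly(A) tails, a first step of mRNA decay, and Cnot3 is one of its subunits. Values here are Affymetrix intensities on a linear scale, summarised by the authors with RMA, and the step that scaled the arrays to each other is not given in the sources used here. No outside standard was used here, so the arrays do not show a fall common to every mRNA, and each change is relative to the other mRNAs of the array. With 1 array at each time no difference has a replicate check, and no p-value is given. A gene is called lower or higher where its intensity differs by over 2-fold, that is by over 1 on the log2 scale, and the log2 change is always against 0 h unless another time is named.

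Loss was more frequent than relative gain in control hepatocytes, and more genes were lost in the first 6 h than in the next 6 h. Of 16381 genes above the 20th percentile of at least 1 control array, 1484 (9.06%) were over 2-fold lower at 6 h and 182 (1.11%) over 2-fold higher. At 12 h 2485 (15.2%) were lower and 717 (4.38%) higher, and between 6 and 12 h 483 (2.95%) were lower and 56 (0.342%) higher. These 3 comparisons share arrays in pairs, so their counts are not independent. The genes lower at 12 h had a median change of -1.07 from 0 to 6 h and of -0.61 from 6 to 12 h. Among the genes lower at 12 h, 778 were over 4-fold lower, 170 over 8-fold and 23 over 16-fold, while 37 genes gained over 4-fold and 2 over 8-fold. The median gene stood at 0.12 at 6 h and 0.16 at 12 h on the log2 scale, above 0.

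**Figure D1:**
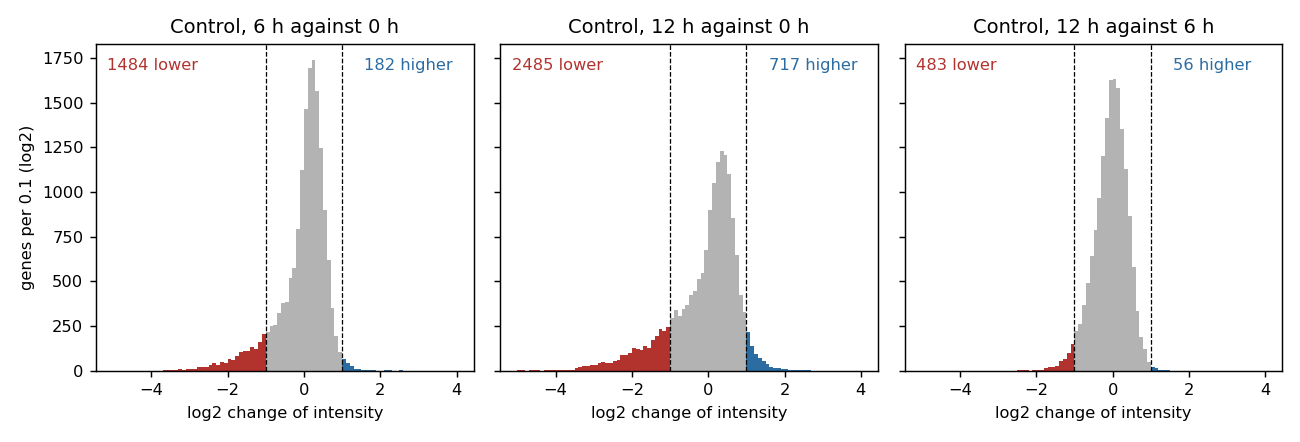
Log2 change of intensity in control hepatocytes at 6 h and 12 h against 0 h and at 12 h against 6 h, as the number of the 16381 genes per step of 0.1; dashed lines mark 2-fold, red bars genes lower and blue bars genes higher. The left tail (2485 genes at 12 h) is longer than the right (717), and the bulk of genes lies slightly above 0.

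The scale of the arrays bears on these counts. The 80th percentile of intensity was 423 at 0 h, 374 at 6 h and 326 at 12 h, while the median stayed between 71.2 and 72.4. With the columns brought to one distribution, an alternative chosen after seeing these percentiles, 2094 genes were lower and 1240 higher at 12 h. Centring on the cytosolic ribosomal protein genes gave 3127 and 356, and centring on Gapdh gave 2054 and 1380. The late phase depended most on the scale, with 742 genes lower and 30 higher from 6 to 12 h after centring on ribosomal protein genes and 231 and 230 after centring on Gapdh. Using the mean of all probe sets of a gene, 949 genes were lower at 6 h, 1676 at 12 h and 203 from 6 to 12 h. Probe sets give the only other measure of precision: over 4241 genes with at least 2 probe sets above the array median, the SD between probe sets of a gene was 0.40 for the log2 change at 6 h and 0.51 at 12 h. Of 1337 genes lower at 12 h with a further probe set above the array median at 0 h, 706 (52.8%) were over 2-fold lower with it too, and 187 had the opposite sign. Of the 89 called genes named in the text that have another probe set, 61 have at least 1 that was not past 2-fold in the same direction, so each value belongs to the brightest probe set of its gene.

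Loss was called most often at medium to high intensity. Of the quintile of genes dimmest at 0 h 0.641% were lower at 12 h, against 31.3% of the fourth quintile and 22.1% of the brightest. Of the 2485 genes lower at 12 h, 58 had reached the lowest quintile of the 12 h array, where a further loss would not be visible. Among the genes named, Cdh11, Kcne3, Npas2 and Tanc1 had 12 h values below the 20th percentile of that array (22.4), so the size of their loss is not exact.

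Of genes above the array median at 0 h whose other probe sets all had the same sign, the 15 largest losses at 12 h were between -3.84 and -4.97 on the log2 scale. A further 17 genes had losses of that size but were left out by a probe set of opposite sign or by a provisional symbol. Slc22a23, a member of the organic ion transporter family, had intensities of 1383 at 0 h, 229 at 6 h and 44.1 at 12 h, a log2 change of -4.97. Magi3, a scaffold protein of cell junctions, had 2018 at 0 h, 150.3 at 6 h and 69.5 at 12 h, a change of -4.86, but its other probe sets gave only -0.31 and -0.12. Mtss1, which binds actin and membranes, had 3185 at 0 h, 277 at 6 h and 141 at 12 h, a change of -4.50, and its other probe sets gave changes between -4.43 and -0.78. In Magi3 and Mtss1 more than 3 log2 units were lost by 6 h and about 1 after it, whereas Slc22a23 lost similar amounts in both phases (-2.59 and -2.38).

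Other large losses were in Dusp16, a phosphatase of JNK and p38 kinases (2214, 174 and 114 at 0, 6 and 12 h), and in Rapgef2, an exchange factor for Rap GTPases (2261, 220.1 and 105). Tcf7l2, a transcription factor of the Wnt pathway, had 534, 48 and 23.3, and Arhgap21, a GTPase-activating protein, had 1617, 255 and 103. Shroom2 and Tanc1, proteins of the cortical cytoskeleton and of scaffolds, had log2 changes of -4.29 and -4.29 at 12 h, while their other probe sets gave -0.46 and -0.60. One other probe set of Tcf7l2 likewise gave -0.0059, and 1 of Arid4b -0.62. Abtb2 had the largest change by 6 h of these genes, with intensities of 737 at 0 h, 30.7 at 6 h and 32 at 12 h, and no further loss. Cnksr3, a scaffold of kinase signalling, and Arid4b, a chromatin protein, likewise stood near their lowest values at 6 h, with changes of -3.57 and -3.51 at 6 h and of -3.38 and -3.84 at 12 h. Tacc2, a centrosomal protein, was lost evenly, with 3489.5 at 0 h, 873 at 6 h and 218 at 12 h. Arfgap1, Mdfic and Kcne3 completed these 15 genes, with changes of -3.96, -3.88 and -4.16. The nuclear receptor coactivator Ncoa2 (828, 71.6 and 29.4), named for its loss by 6 h, had a change of -4.81 at 12 h but is not among the 15, since 1 of its other probe sets gave 0.38.

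**Figure D2:**
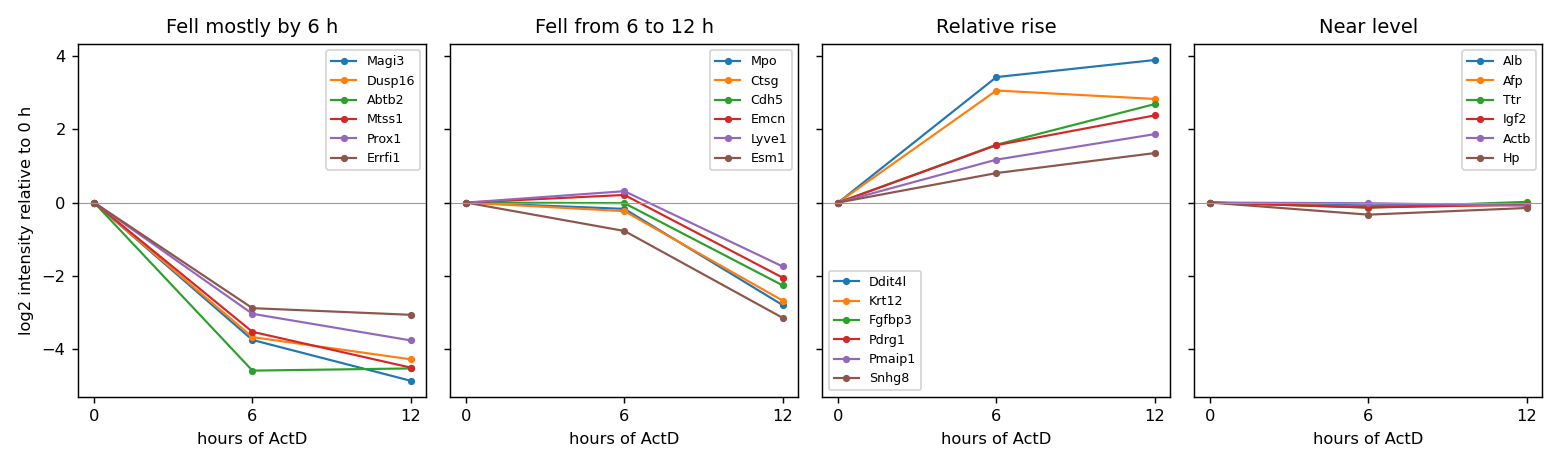
Log2 intensity relative to 0 h over hours of ActD, 1 control array per point, for 4 sets of 6 genes: genes with most of their loss by 6 h, genes with most of it between 6 and 12 h, genes with a relative gain, and bright hepatocyte or cytoskeletal genes. Mpo and the endothelial genes stay near 0 at 6 h and then drop, whereas Dusp16 and Abtb2 are at or near their lowest value at 6 h.

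Of the 8 genes named for the largest loss between 6 and 12 h, again without opposite probe sets, 4 belong to the lists of endothelial or leukocyte markers, and most of the 8 were near their 0 h level at 6 h. Mpo, the peroxidase of neutrophil granules, had intensities of 1823 at 0 h, 1618 at 6 h and 263 at 12 h. Ctsg, a granule protease of the same lineage, had 822 at 0 h, 698 at 6 h and 129 at 12 h. Their changes were -0.17 and -0.23 in the first 6 h and -2.62 and -2.44 in the next 6 h. Cdh5, the cadherin of endothelial cells, had 405 at 0 h, 400.2 at 6 h and 84.6 at 12 h, although its other probe set changed by only 0.13. Emcn, an endothelial sialomucin, had 191 at 0 h, 221 at 6 h and 46.3 at 12 h, and Lyve1, a receptor of sinusoidal and lymphatic endothelium, had 296 at 0 h, 368 at 6 h and 88.6 at 12 h. Esm1, secreted by endothelium, had 224, 131 and 25.4, and the mesenchymal cadherin Cdh11 had 122, 92 and 20.4. The 8 genes named for the late phase were these 7 and Slc22a23.

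Over the whole endothelial marker list, 0 of 15 genes were over 2-fold lower at 6 h and 6 at 12 h (40%, against 15.2% of all genes). The list's median was 0.04 and then -0.76, against 0.12 and 0.16 for all genes. The summed intensity of these 15 markers was 3120 at 0 h, 3207 at 6 h and 2034 at 12 h. Egfl7 (301, 387 and 402), Fcgr2b (466, 444 and 445) and Clec4g (59, 68.8 and 76.7), further endothelial markers, were not lower by 2-fold. Of the 12 leukocyte markers Mpo alone was over 2-fold lower at 12 h. Elane, another granule protease, had 307, 389 and 230.4, and S100a8, abundant in neutrophils, had 20924, 20832 and 20728. Among 16 macrophage markers Fcgr1, an IgG receptor, was the only one lower (529.5, 670.2 and 262), and the summed intensity of that list was 22016, 27367 and 23916. Fewer cells of a type and less of its RNA per cell cannot be told apart in bulk RNA.

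No marker of hepatocytes was called in either direction, but the brightest of them lie at the top of the scale. Of all genes 15.2% were lower and 4.38% higher at 12 h, and in a list of 8 genes a count of 0 is near these shares. Alb, the main plasma protein, had 35595 at 0 h, 33707 at 6 h and 35069.7 at 12 h, which is the highest intensity of all probe sets at 0 h. Afp, its fetal counterpart, had 34461, 31699 and 32966, and Ttr, a carrier of thyroid hormone, had 32862, 29852 and 33307. The highest intensity of any probe set was 33865 at 6 h, so a loss of these 3 mRNAs could be hidden there. Below that range Ahsg, a plasma glycoprotein, had 10289, 11274 and 12530.1 and Apob, of low-density lipoprotein, 1765, 1447 and 2659. The 8 hepatocyte markers that passed the filter had a median of -0.10 at 6 h and -0.00 at 12 h. Tdo2 (26.8, 26.6 and 24.4) and Pck1 (24.9, 31.5 and 30.7), enzymes of the mature liver, were dim at all 3 times. Krt19, a keratin of bile duct cells, was bright, at 6691, 8324 and 8010.3.

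The 48 gene lists ranged from a median log2 change of -1.54 to 0.78 at 12 h. In 16 lists the share of genes over 2-fold lower at 12 h was at least 2 times the 15.2% of all genes, and in 8 lists no gene was lower. The 15.2% includes dim genes, whereas 31.3% of the fourth and 22.1% of the brightest quintile by intensity at 0 h were lower. With the filter at the 50th percentile 10 lists had at least 2 times the share of all genes. No list had a median over 2-fold higher, and 5 had a median over 2-fold lower. Under the 3 other scalings 25 of the lists and marker lists changed the sign of their median, all of them within 0.20 of 0. The 5 lists with the lowest medians were the liver transcription factors, the MAP kinase feedback genes, the circadian clock, the Ccr4-Not subunits and a list of ubiquitin ligases of signalling.

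**Figure D3:**
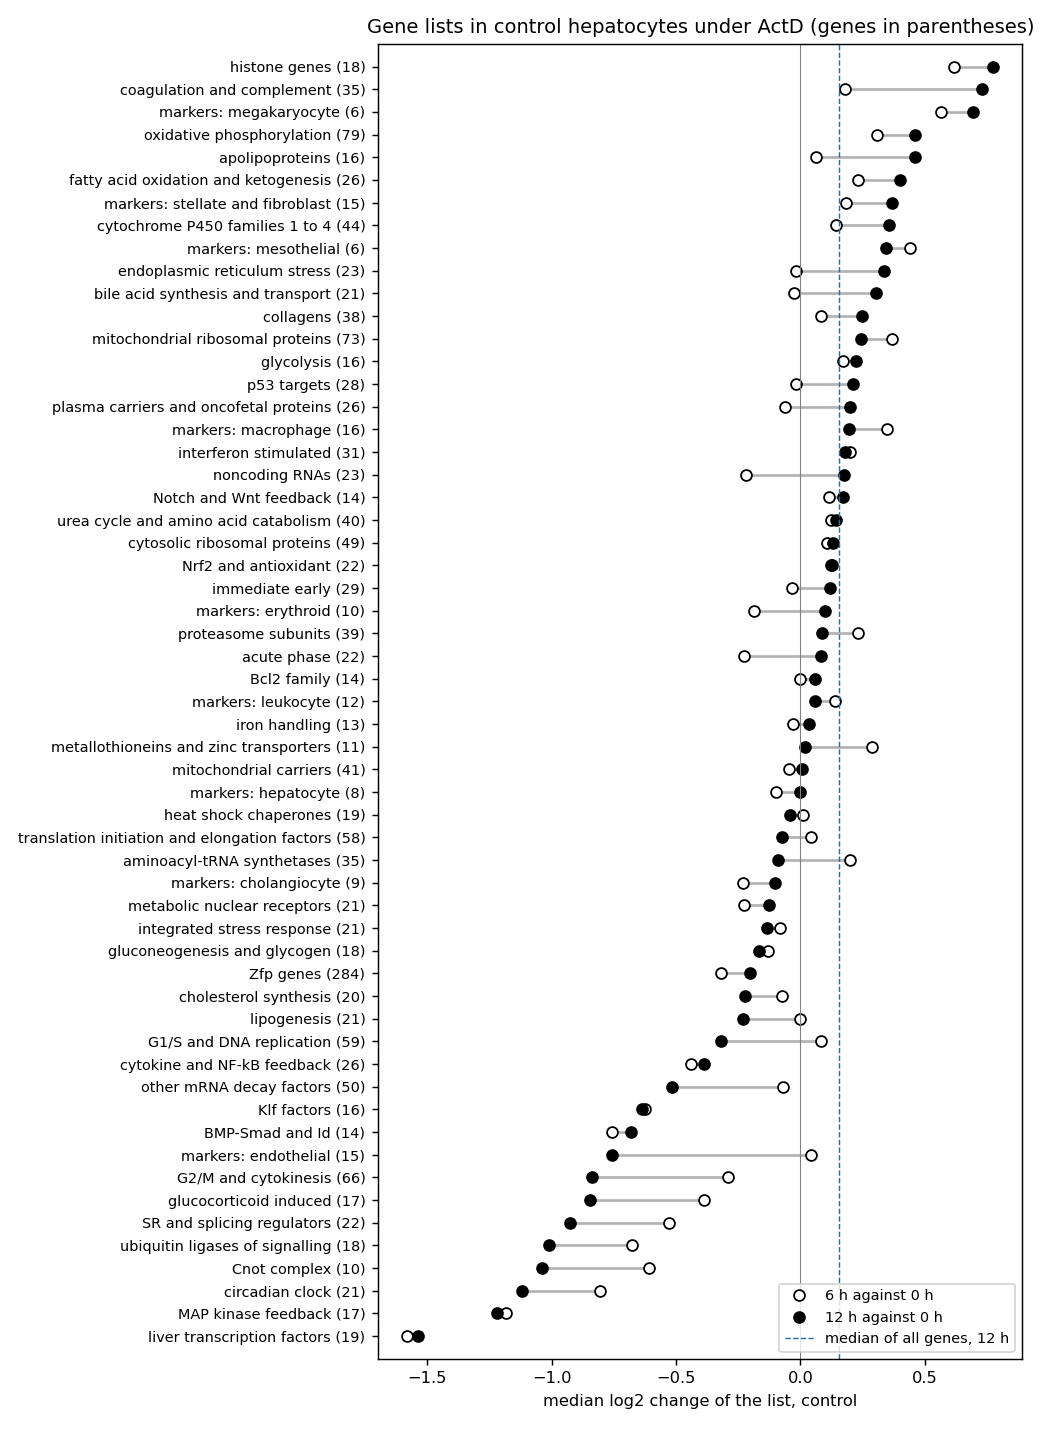
Median log2 change of each gene list in control hepatocytes at 6 h (open circles) and 12 h (filled circles) against 0 h, with the number of genes that passed the filter in parentheses and the median of all genes at 12 h as a dashed line. Liver transcription factors lie lowest (-1.54 at 12 h) and the histone list highest (0.78), and the endothelial markers differ most between the 2 times.

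Transcription factors of the liver showed the lowest median of all lists. Of 19 that passed the filter 11 were over 2-fold lower at 6 h and 13 at 12 h (68.4%, against 15.2% of all genes). None was higher, and the median was -1.58 and -1.54. Prox1, a homeobox factor of hepatoblasts, had intensities of 459 at 0 h, 56 at 6 h and 33.9 at 12 h, and Nr5a2, a nuclear receptor of bile acid synthesis, had 765, 89.5 and 68.1. Gata6 had 914, 174 and 130.3 and Foxa3, a pioneer factor of hepatocyte genes, 1347, 280.4 and 219. One of the 3 other Nr5a2 probe sets gave 0.60 at 12 h. Cebpa, a driver of hepatocyte maturation, had 722, 239.9 and 132, while Cebpb had 3695, 1143 and 1101 and so no further loss after 6 h.

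Hnf4a, the master regulator of hepatocyte identity, declined more slowly, with 6531 at 0 h, 3579 at 6 h and 2603 at 12 h. Onecut1 had 462, 251 and 190.4 and Foxa2 1215, 600.0 and 757, the latter under 2-fold lower at 12 h. Cebpd and Gata4 were the only members above their 0 h value, with changes of 0.06 and 0.09. The list thus spans from a change of -3.76 to 0.09 at 12 h.

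Feedback inhibitors of MAP kinase signalling were lost almost wholly in the early phase. Of 17 genes 9 were over 2-fold lower at 6 h and the same number at 12 h (52.9%, against 9.06% and 15.2% of all genes). None was over 2-fold lower between 6 and 12 h, a count near the 2.95% of all genes. The median of the list was -1.18 at 6 h and -1.22 at 12 h. Errfi1, an inhibitor of EGF receptor kinases, had 7935 at 0 h, 1078 at 6 h and 951 at 12 h. Spred1, an inhibitor of Ras signalling, had 313, 45.3 and 38.9, and its relative Spred2 671, 105 and 62.6, with its other probe sets between -0.73 and 0.27. Dusp1, a MAP kinase phosphatase induced by glucocorticoids, had 3136, 771 and 819. Spry2 and Dusp8 were not lower on their brightest probe sets (0.25 and 0.35), but the other Spry2 probe set gave -1.95.

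Immediate early genes went both ways. Of 29 genes 8 were lower at 6 h (27.6%, against 9.06% of all genes) and 1 was higher (1.11% of all genes). At 12 h 6 were lower and 2 higher (20.7% and 6.90%, against 15.2% and 4.38% of all genes). The median at 12 h was 0.12, beside 0.16 for all genes. Ccn2, a matricellular target of Yap, had 4151 at 0 h, 697 at 6 h and 982 at 12 h, and Btg1, an antiproliferative factor, had 6428, 1570.1 and 2197. Jund had 2028, 579 and 712 and Fosl2 371, 145 and 135, both subunits of AP-1, with other probe sets at 0.32 and 0.13, and 1 other Btg1 probe set gave 0.99. All 4 were lower at 6 h, and Ccn2, Btg1 and Jund stood somewhat higher at 12 h than at 6 h.

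Fos, the partner of Jun in AP-1, instead had 893 at 0 h, 1443 at 6 h and 2033 at 12 h, a log2 change of 1.19. Jun had 981, 1093 and 1529.7, and Ier5l 66.6, 156 and 247. Egr1, a zinc finger factor induced by growth factors, had 1422, 623 and 1013, and Myc had 889.6, 322 and 492. Egr1 and Myc were thus over 2-fold lower at 6 h but not at 12 h. Atf3 (644, 452 and 701), Junb (332, 288 and 311) and Ier2 (547, 534 and 647) stayed within 2-fold at both times.

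Feedback genes of cytokine signalling were split. Socs3, an inhibitor of cytokine receptors, had 1843 at 0 h, 724 at 6 h and 705 at 12 h, and Nfkbia, the inhibitor of NF-kB, had 4989.9, 1947 and 2165. Bcl3 had 667, 181 and 113, Nfkbiz 617, 144 and 186 and Pim3, a kinase induced by cytokines, 2468, 524 and 569. One other probe set gave 0.088 for Nfkbiz and 1 gave 0.0037 for Pim3. Zfp36, which binds AU-rich elements and brings Ccr4-Not to mRNAs, had 782, 598 and 633 and was not called. Socs2 (85, 119.9 and 214) and the chemokine Cxcl2 (54.8, 109 and 119) were higher, and other Socs2 probe sets ranged from -0.71 to 2.19.

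In the BMP list Smad6, an inhibitory Smad, had 158, 39.5 and 26.1, Skil 1776, 499.8 and 491 (its other probe set 0.081) and Id3 1134, 415 and 526, while Id1, with 1593 at 0 h, 1856 at 6 h and 2789 at 12 h, was not over 2-fold lower. Hamp, the iron hormone hepcidin and a target of BMP signalling, had 2247, 1265 and 956. Among Klf factors 6 of 16 were lower at 12 h (37.5%, against 15.2% of all genes). Klf15 had 642, 170.3 and 87.2 and Klf3 2578, 418 and 370.5, although 1 other Klf3 probe set gave 1.10. Klf6 had 1478, 903 and 950.0, under 2-fold lower, and Klf4 had 189, 179 and 274. In the Wnt feedback list Znrf3 (200.2, 33.5 and 24.4) and Rnf43 (100.2, 33.2 and 25.4), a pair of ubiquitin ligases that remove Wnt receptors, were the only members lower, and the other Znrf3 probe set gave 0.30.

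Components of the circadian clock were lower in 12 of 21 cases at 12 h (57.1%, against 15.2% of all genes) and in 10 at 6 h, with a median of -1.12 at 12 h. Arntl, which encodes Bmal1, had 615 at 0 h, 82.3 at 6 h and 83.4 at 12 h. Its partner Clock had 419.8, 176 and 89.6 and the related Npas2 211, 31.8 and 21.4. The repressors Cry1 (241, 95.7 and 59.1) and Per1 (484, 204 and 193) were lower too. Rora, an activator of Arntl, had 1404, 317 and 249 on its brightest probe set and changes between -3.92 and 0.32 on its 8 others. Bhlhe41 was the only member higher (29.7, 50.8 and 76.9).

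Subunits of the Ccr4-Not complex were often lower at 12 h. Of 10 measured subunits 7 were over 2-fold lower at 12 h (70%, against 15.2% of all genes) and 3 at 6 h. The median was -0.61 at 6 h and -1.04 at 12 h. The count rests on the scale and the probe set, since 4 of 10 were lower after centring on Gapdh, with the columns at one distribution or with the mean of all probe sets. Cnot9 (-1.04), Cnot8 (-1.04) and Cnot11 (-1.03) passed 2-fold narrowly, and the other Cnot11 probe sets gave 0.23 and 0.55. Cnot4, a ubiquitin ligase associated with the complex, had 799 at 0 h, 94.1 at 6 h and 67.1 at 12 h, and its 4 other probe sets gave changes between -2.90 and -1.09. Among the catalytic subunits Cnot6l had 1290.1, 655 and 339, Cnot7 1637, 977 and 596 and Cnot8 648, 538 and 316, whereas Cnot6 had 1809, 2269 and 2182 and was not lower. The 2 other Cnot7 probe sets did not show the loss (0.015 and 0.61). Cnot3 had 296 at 0 h, 214 at 6 h and 158 at 12 h, just under 2-fold, and its other probe set gave 0.53. In Cnot3KO cells the Cnot3 probe set read 174, 174 and 146, against 296 in control cells at 0 h.

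Among 50 further factors of mRNA decay 16 were lower at 12 h (32%, against 15.2% of all genes). This share was near the 31.3% of the fourth quintile of genes by intensity at 0 h, and 22.1% of the brightest quintile were lower. Hnrnpd, which binds AU-rich elements, had 3261, 1449 and 482, Pum2, a Pumilio protein that recruits Ccr4-Not, 1533, 285 and 273, and Dicer1, which processes microRNAs, 492, 312 and 99.1. Pabpc4, a poly(A)-binding protein, had 3885, 5827 and 6164. Hnrnpd and Dicer1 lost more after 6 h than before, and Pum2 the reverse.

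Splicing regulators declined in both phases. Of 22 genes 3 were lower at 6 h, 10 at 12 h (45.5%, against 15.2% of all genes) and 2 between 6 and 12 h, with a median of -0.53 and -0.93. Srsf3, an SR protein, had 5301 at 0 h, 2472 at 6 h and 952 at 12 h, Srsf1 5813, 3474 and 1824 and Tra2b 4285, 2481 and 1102. All 3 have another probe set that was not lower, with changes of 0.27, 0.23 and 0.063. Hnrnpa1 had 1729, 2184 and 2088, but its 2 other probe sets were lower at 12 h, with changes of -1.79 and -0.87.

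Genes of mitosis were lost in both phases. Of 66 genes of G2/M and cytokinesis 14 were over 2-fold lower at 6 h, 30 at 12 h (45.5%, against 15.2% of all genes) and 11 from 6 to 12 h (background 2.95%). None was higher at any time. Ect2, an exchange factor of cytokinesis, had 1559 at 0 h, 585 at 6 h and 222 at 12 h. Incenp, of the chromosomal passenger complex, had 1835, 693 and 343, with 1 other probe set at 0.079. Kif20b, a kinesin, was lost early (276, 41.5 and 31.6). Spc25, of the kinetochore, had 1636, 725 and 252, but its other probe set read the opposite, 1.02. Ccnb2 (2202, 3256 and 3512) and Kif20a (999.9, 1441 and 1730.3) were not lower. Among 59 genes of G1/S and replication 13 were lower at 12 h (22.0%, against 15.2% of all genes), such as Cdc6, a licensing factor (342, 184 and 66.1), and Brca1 (359, 157 and 84.5), of whose other probe sets 1 gave 0.41. Ccnd1, the cyclin that drives entry into S phase, was higher, with 1245 at 0 h, 2644 at 6 h and 2575 at 12 h.

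Genes of apoptosis and of the p53 response went both ways. Mcl1, an unstable protector from apoptosis, had 7556 at 0 h, 1553 at 6 h and 1661 at 12 h, and all 5 other probe sets were lower as well. Bcl2l1, which encodes Bcl-xL, had 1450.5, 430.4 and 366, and Mdm2, the ligase that degrades p53, 1108, 385 and 354, with its other probe sets between -0.88 and 0.48. Pmaip1, which encodes the killer protein Noxa, had 998 at 0 h, 2248 at 6 h and 3639.6 at 12 h, and Gadd45a had 315, 448 and 679. Over 28 p53 targets 2 were lower and 2 higher at 12 h (7.14% each, against 15.2% and 4.38% of all genes), and the median was 0.21. Cdkn1a, the cell cycle inhibitor p21, had 2408, 3398 and 2949, within 2-fold.

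Lists of stress responses differed in their share of genes lower at 12 h. The integrated stress response had 5 of 21 (23.8%), endoplasmic reticulum stress 5 of 23 (21.7%) and the Nrf2 list 4 of 22 (18.2%). These shares were not far from the 15.2% of all genes. Of 19 heat shock chaperones 6 (31.6%) were lower, beside 31.3% of the fourth and 22.1% of the brightest quintile by intensity at 0 h. Atf4, the factor of the integrated stress response, had 6032 at 0 h, 1018 at 6 h and 936 at 12 h and Trib3, one of its targets, 1054, 202 and 238. Xbp1, the factor of the unfolded protein response, had 7882, 1778 and 1647 and Ern1, which splices its mRNA, 763, 142 and 137. Nfe2l2, which encodes Nrf2, had 3998, 819.6 and 699, and its targets Osgin1 1662, 309 and 225 and Gclc 7732, 3402 and 1340.3. Other members of the Nrf2 list rose, with 3 of 22 over 2-fold higher at 12 h (13.6%, against 4.38% of all genes). The median of that list was 0.12. For Atf4, Ern1 and Nfe2l2 another probe set was not lower (0.33, 0.67 and 1.29). Hspa8, the constitutive cytosolic chaperone, had 22262, 11298 and 6886, while the inducible Hspa1a had 310.2, 475 and 1045.

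Igfbp1, a secreted binding protein of insulin-like growth factors, was among the brightest genes to be lost, with 22148 at 0 h, 6131 at 6 h and 4109 at 12 h. Ppargc1a, the coactivator of gluconeogenesis, had 369.6, 65.9 and 41.5, Foxo1, a factor controlled by insulin, 812, 113 and 82.3, and G6pc, the last enzyme of glucose release, 334, 75 and 58.2. Of the 3 other Foxo1 probe sets 1 gave 0.43. Ppara, a nuclear receptor of fatty acid oxidation, had 667, 250.2 and 141, and Nr1h4, the bile acid receptor, 481, 89.1 and 64.4. Gpam, the first enzyme of triglyceride synthesis, had 10300.5 at 0 h, 1770.4 at 6 h and 799 at 12 h. At 12 h 6 of 18 genes of gluconeogenesis and glycogen (33.3%) and 6 of 21 metabolic nuclear receptors (28.6%) were lower. So were 7 of 21 lipogenesis genes (33.3%), but only 2 of 26 genes of fatty acid oxidation and ketogenesis (7.69%), against 15.2% of all genes. The list medians were, in this order, -0.17, -0.13, -0.23 and 0.40.

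In cholesterol synthesis 5 of 20 genes (25%) were lower at 12 h and 1 (5%) at 6 h, against 15.2% and 9.06% of all genes. The share at 12 h was near the 22.1% of the brightest quintile of genes by intensity at 0 h. Sqle, which oxidises squalene, had 6045 at 0 h, 2011 at 6 h and 841 at 12 h, Hmgcs1, at the start of the pathway, 11761, 6379.9 and 2549, and Fdft1, which makes squalene, 8101, 4364 and 2303. Hmgcs1 was lower with all 4 other probe sets, and 1 other Fdft1 probe set gave 0.86. Ebp, a sterol isomerase, had 4931, 5419 and 5882 and Tm7sf2, a sterol reductase, 889.6, 1211 and 1744. Cyp7a1, the rate-limiting enzyme of bile acid synthesis, had 143, 32.8 and 36, and Cyp1a1, a target of the Ah receptor, 2036, 491 and 542. Over 44 cytochrome P450 genes 2 were lower and 2 higher at 12 h (4.55% each, against 15.2% and 4.38% of all genes). Cps1, of the urea cycle, had 4155, 2609 and 3215, and Otc, its next enzyme, 214, 273 and 498.

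In 3 lists of secreted plasma proteins, some of which share genes, no gene was over 2-fold lower at either time. Of all genes 9.06% were lower at 6 h and 15.2% at 12 h. A further list, of acute phase proteins, had 1 of 22 genes lower (Hamp) and 1 higher at 12 h, with a median of 0.08. The coagulation and complement list had 10 of 35 genes over 2-fold higher at 12 h (4.38% of all genes) and 1 at 6 h, with a median of 0.18 and then 0.73. C1ra, a protease of the first complement component, had 264 at 0 h, 379.8 at 6 h and 746 at 12 h, Pros1, which encodes protein S, 294, 448 and 807, and F13b 152, 152 and 405. Fgb, of fibrinogen, had 27478, 22760.4 and 26491, close to the top of the scale. Of 26 plasma carriers 5 were higher at 12 h (19.2%), such as Orm1 (222, 316 and 557) and Dlk1, a fetal transmembrane protein (251, 479 and 590.4). Among 16 apolipoproteins 3 were higher (18.75%), with Apoc3, an inhibitor of lipoprotein lipase, at 514, 767 and 1305, while Apoa1 had 27188, 25903 and 26139.9. Igf2, the fetal growth factor, had 6975 at 0 h, 6359 at 6 h and 6722 at 12 h, and Igf1 127, 181 and 182. With centring on ribosomal protein genes the median of all genes shifts by -0.20 at 12 h, and with centring on Gapdh by 0.18, so that changes of this size have no settled sign.

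Genes of ribosomes, oxidative phosphorylation and proteasomes were rarely lost. Of 49 cytosolic ribosomal protein genes 0 were lower and 2 higher (4.08%) at 12 h, with a median of 0.13. Of 79 genes of oxidative phosphorylation 0 were lower and 3 higher (3.80%), with a median of 0.46. Of all genes 15.2% were lower and 4.38% higher, so the shares higher were near background. The ribosomal protein genes had a summed intensity of 802400 at 0 h, and for the brightest a loss could be hidden near the top of the scale. Rps14 had 23403, 24769 and 22227, Rpl14 677, 1235 and 1665 and Atp5g3, a subunit of ATP synthase, 17398, 17749 and 16329. Of 39 proteasome subunits 0 were lower and of 73 mitochondrial ribosomal proteins 3 were, whereas 7 of 41 mitochondrial carriers (17.1%) were lower, near the 15.2% of all genes. Actb, also close to the top of the scale, had 29124 at 0 h, 28775 at 6 h and 27455 at 12 h. Aldoa, of glycolysis, had 8849.9, 8288 and 5839. Polr2a, the large subunit of RNA polymerase II, had 1253, 1487 and 1195.

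The histone list had the highest median of all lists (0.62 at 6 h and 0.78 at 12 h), with 8 of 18 over 2-fold higher at 12 h (44.4%, against 4.38% of all genes). It includes H13, which is not a histone gene and was not called. The genes called higher had intensities of at most 346 at 0 h. The bright H1f2 (9705, 11403 and 10041) and H2az1 (7365, 9594 and 10302) changed by 0.05 and 0.48 at 12 h. H3f3b, a replication-independent histone, had 115 at 0 h, 629 at 6 h and 730.3 at 12 h, and H2bc21 had 163, 384 and 670.4. The H3f3b values rest on the only probe set that names it alone and passed the filter. H2ax, the variant phosphorylated at DNA breaks, had 2644, 2794 and 1889. Among long noncoding RNAs the hosts of small nucleolar RNAs Snhg8 (1404, 2453 and 3579.8) and Gas5 (3276, 4641 and 6086) had higher values, while the nuclear RNAs Kcnq1ot1 (846, 277 and 179.9) and Neat1 (1822, 413 and 409) and the cytoplasmic Norad (3687, 1441 and 1762) were lower. One other probe set of Neat1 gave 0.67, and 1 of Norad 0.50. The change of Gas5 at 12 h was under 2-fold (0.89), and its 3 other probe sets ranged from -2.59 to 0.79.

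Relative gains of over 4-fold were few, 10 genes at 6 h and 37 at 12 h. Ddit4l, an inhibitor of mTOR signalling, was the extreme case, with intensities of 136 at 0 h, 1464 at 6 h and 2021 at 12 h, and its 2 other probe sets gave log2 changes of 1.60 and 4.33. Krt12, a keratin known from the cornea, had 32.4, 269.8 and 230.1, and its other probe set gave 3.01. For both genes nearly all of the gain was present at 6 h. Fgfbp3, a binding protein of fibroblast growth factors, had 38.8, 116 and 249.7 and Rab42, a small GTPase, 31.4, 99.5 and 199.6, with further gain after 6 h. Pdrg1, named for its response to DNA damage, had 323, 957 and 1679, Snhg10 196, 659 and 1036, and Cox6b2, the testis form of a subunit of cytochrome c oxidase, 70.8, 168 and 352. Zfp296 (49.5, 175 and 230.1), Zfp365 (20.9, 51.3 and 102) and Zfp688 (115, 334 and 509.9), zinc finger genes, were higher. Over the list of 284 Zfp genes, however, 58 were lower (20.4%) and 7 higher (2.46%) at 12 h, against 15.2% and 4.38% of all genes. Tap1, a peptide transporter of antigen presentation, had 143, 347 and 643.

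Gains after 6 h were smaller and fewer. Ifit1, induced by interferon, had 29.3 at 0 h, 18.7 at 6 h and 85.7 at 12 h, dim at 6 h, and Gbp2, a guanylate-binding protein, had 85.6, 150.1 and 348. Of 31 interferon-stimulated genes 6 were higher at 12 h (19.4%, against 4.38% of all genes) and 2 lower (6.45%, against 15.2%). The 2 lower were Ifit2 (535, 276 and 233) and Ddx58 (583, 403 and 290.3). Qpct, which cyclises amino-terminal glutamine, had 240.1, 413 and 1098, and S100g, a calcium-binding protein, 614, 843 and 2202. Ugt2b1, a glucuronosyltransferase, had 33.7, 47.5 and 119.7 and Rprm, a cell cycle inhibitor, 44.7, 81.3 and 201. These genes stood nearer to their 0 h value at 6 h than at 12 h.

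Genes with a long locus were lost more often than genes with a short one. Locus lengths, from first to last base in the RefSeq annotation of GRCm38.p6, were known for 16346 of the 16381 genes, with a median of 49.8 kb for genes lower at 12 h, 10.3 kb for genes higher and 18.0 kb for the rest. From the shortest to the longest quintile of genes the share lower at 12 h was 3.64%, 7.31%, 11.7%, 22.5% and 30.7%. The share higher ran the other way, at 7.98%, 5.38%, 3.61%, 2.84% and 2.05%. Intensity moves with length, since the median at 0 h was 106 in the shortest quintile and 214 in the longest. Among genes above the array median at 0 h, where quintiles had medians between 372 and 442, the share lower still went from 6.32% in the shortest quintile to 41.3% in the longest. The loss between 6 and 12 h had the same order, from 0.780% to 10.7%.

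**Figure D4:**
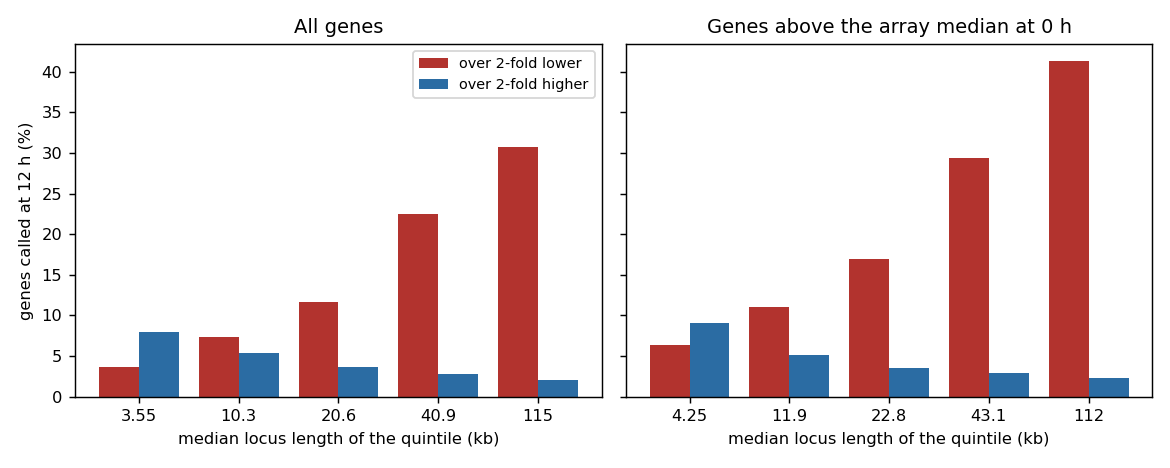
Share of genes over 2-fold lower (red) and over 2-fold higher (blue) at 12 h in control hepatocytes, in quintiles of genes by locus length, for all genes and for genes above the array median at 0 h. The share lower climbs with each quintile, from 3.64% to 30.7% and from 6.32% to 41.3%, while the share higher shrinks.

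The lists do not all follow length. Liver transcription factors had a median locus of 10.3 kb and MAP kinase feedback genes of 12.7 kb, both below that of all genes (20.6 kb), and had the lowest medians of all lists. Collagens had the longest, 114 kb, and 0 of 38 were over 2-fold lower at 12 h. The histone list (1.34 kb) and the cytosolic ribosomal protein genes (3.55 kb) had short loci and no gene over 2-fold lower at 12 h.

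Control and Cnot3KO cells share no array, so their changes can be set side by side, but with 1 array per time the difference between them was not tested. Fewer genes were called in Cnot3KO cells: 440 (2.69%) were lower at 6 h and 722 (4.41%) at 12 h, and 123 (0.751%) were higher at 6 h and 506 (3.09%) at 12 h. Of the 2485 genes lower at 12 h in control 551 were lower in Cnot3KO too, which is 22.2% of the control list and 76.3% of the Cnot3KO list. Of the 717 genes higher in control 166 were higher in Cnot3KO, 23.2% and 32.8% of the lists. The control-lower genes had a median log2 change of -1.63 in control, where they were chosen, and of -0.49 in Cnot3KO. The control values chose these genes, so the second median is the only one free of that choice.

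The sets differed in how near the genotypes were. Liver transcription factors had medians of -1.54 in control and -0.27 in Cnot3KO at 12 h, and MAP kinase feedback genes -1.22 and 0.15. Endothelial markers had -0.76 and -0.55, the nearest of these 3 lists. Errfi1 changed by -3.06 in control and -0.67 in Cnot3KO, Prox1 by -3.76 and -1.08, and Mcl1 by -2.19 and 0.06. Cdh5 changed by -2.26 and -2.53, Emcn by -2.05 and -3.08, and Ddit4l by 3.89 and 3.52. For the first 3 genes the change was smaller in Cnot3KO by over 2 log2 units, and for the latter 3 the genotypes lay within about 1 log2 unit of each other. In the quintile of genes with the longest loci 30.7% were lower at 12 h in control and 17.9% in Cnot3KO, against 3.64% and 0.520% in the shortest.

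**Figure D5:**
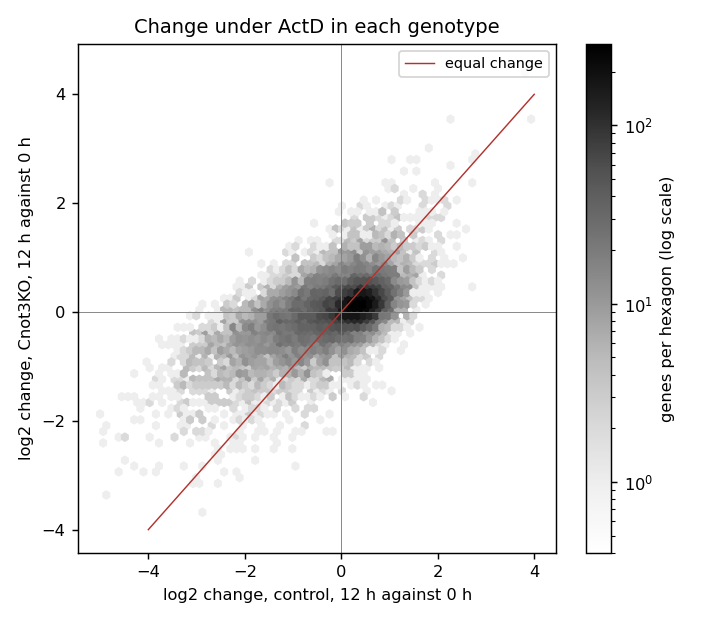
Log2 change at 12 h of ActD against 0 h in control (x axis) and Cnot3KO hepatocytes (y axis), as hexagons shaded by the number of the 16381 genes, with equal change as a red line. Most genes with a loss in control lie above the line, that is with a smaller loss in Cnot3KO.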

How the data were processed

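Total RNA of 3 control and 3 Cnot3KO samples, 1 per genotype and time, was labelled with biotin by the authors and hybridised to Affymetrix mouse arrays. The deposited intensities, 1 per probe set on a linear scale, were summarised by the authors with RMA, with neither the software version nor the normalization between arrays given in the sources used here. All 6 columns of the table were mapped to a sample by its accession.

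Of 45037 probe sets 34945 had 1 gene symbol in the platform annotation, 932 several and 9160 none. Symbols were updated through gene identifiers to RefSeq (GRCm38.p6), with 99.4% found. For each of 18193 genes the probe set naming it alone with the highest mean log2 intensity over the 6 arrays was used, and 16381 genes above the 20th percentile of at least 1 control array were kept. Gapdh has no probe set of its own, so centring on it used its brightest probe set, which lists 5 symbols. Calls are changes of over 2-fold and no test was made, since the number of arrays limits the precision. The calls were checked on simulated data with known changes. Analyses used Python 3.11.15, pandas 2.3.3 and numpy 2.4.6.

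The gene lists, marker lists and fixed genes were chosen with earlier results of these data known. Named genes were the 15 largest losses and gains at 12 h, the 8 largest in each phase, up to 4 falling and 2 rising members of each list and a fixed set. They had to lie above the array median, and outside the lists their other probe sets had to share the sign. Cnot8, Cnot9, Cnot11, Cry1, Fcgr2b, Gas5, Krt19 and S100a8 were chosen after their values were seen. Alternatives were other filters, choices of probe set, scalings and folds.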

Additional observations from a re-analysis of the deposited data

Results flagged for a closer look

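At 12 h a pair of the genes described changed by over 1.5-fold in opposite directions in the 2 genotypes, and the difference was not tested. Mdm2 had a log2 change of -1.65 in control and 0.88 in Cnot3KO, and Ifit2 had -1.20 in control and 0.80 in Cnot3KO. One other Mdm2 probe set gave 0.48 in control.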

How the results depend on the processing

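No paired analysis was possible because each group is 1 array. Leaving out the filter left all counts as they were, and the choice of the brightest probe set over control arrays, the filter at the 50th percentile and the removal of shared-sequence probe sets kept the counts of genes within 1.5 times. With the 50th percentile filter 10 lists, not 16, had at least 2 times the background share. The mean of all probe sets gave 949 genes lower at 6 h, 203 from 6 to 12 h and 306 lower at 12 h in both genotypes. Centring on ribosomal protein genes gave 356 higher at 12 h, 742 lower and 30 higher from 6 to 12 h, and 102 higher in both genotypes. Centring on Gapdh gave 1380 higher at 12 h, and 231 lower and 230 higher from 6 to 12 h. With the columns at one distribution, chosen after seeing the data, 1240 genes were higher at 12 h, 274 at 6 h and 112 from 6 to 12 h. At 1.5-fold 3826 were lower and 3122 higher at 12 h, 2587 and 1584 at 6 h, and 1912 and 824 from 6 to 12 h. Counting each probe set gave 5067 and 1802, 3136 and 661, and 917 and 142. For these settings the cause was not tested, except that a lower fold and a larger number of features raise counts by construction. Of 196 genes named 115 have another probe set, and in 31 a called change at 12 h had the opposite sign in at least 1 of them. Their log2 changes were Atf4 (0.33), Brca1 (0.41), Btg1 (0.99), Cdh5 (0.13), Cnot7 (0.015 and 0.61), Cnot11 (0.23 and 0.55), Ern1 (0.67), Fdft1 (0.86), Fosl2 (0.13), Foxo1 (0.43), Incenp (0.079), Jund (0.32), Klf3 (1.10), Mdm2 (0.48), Ncoa2 (0.38), Neat1 (0.67), Nfe2l2 (1.29), Nfkbiz (0.088), Norad (0.50), Nr5a2 (0.60), Pdgfra (1.04), Pim3 (0.0037), Rora (0.32), Skil (0.081), Socs2 (-0.71), Spc25 (1.02), Spred2 (0.27), Srsf1 (0.23), Srsf3 (0.27), Tra2b (0.063) and Znrf3 (0.30). Loss of dim genes, and any loss common to all mRNAs, cannot be seen on these arrays.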

Other observations

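Probe sets without a gene symbol were lost less often than named ones. Of 6463 unnamed probe sets that passed the filter, 557 (8.62%) were over 2-fold lower and 365 (5.65%) over 2-fold higher at 12 h, against 14.8% and 4.55% of 30246 probe sets with 1 symbol. Their median intensity at 0 h was 49.5 and 130 for the named ones, and the part of intensity in this difference was not tested. By RefSeq class, 1.05% of 1043 long noncoding RNA genes and 16.2% of 15155 protein-coding genes were lower, with median intensities of 39.3 and 235.

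Megakaryocyte markers stood apart from the endothelial ones. Of 6 genes 2 were over 2-fold higher at 12 h (33.3%, against 4.38% of all genes) and none lower. Gp1bb, of the platelet receptor for von Willebrand factor, had 168, 357 and 414, and the summed intensity of the list was 4434, 6506 and 7348. Of 15 stellate cell and fibroblast markers 2 were lower at 12 h (13.3%, against 15.2% of all genes) and 2 higher. Pdgfrb (587, 206 and 79.9) and Pdgfra (145, 32.2 and 24.9), receptors of these cells, were the 2 lower, but 1 of the other Pdgfra probe sets gave a log2 change of 1.04. Tagln, an actin-binding protein, had 1869, 3673 and 3996 and was higher.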
